A study of Mus musculus with 6 samples.

Results

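Oxidative phosphorylation is carried out in the inner mitochondrial membrane by the respiratory chain and the ATP synthase. Complex I and complex II pass electrons from NADH and succinate to ubiquinone, complex III passes them on to cytochrome c, and complex IV, the cytochrome c oxidase, hands them to oxygen. The proton gradient that complexes I, III and IV build drives the ATP synthase. Most subunits are encoded in the nucleus, and many of them are small proteins made from short mRNAs. In the cornea, keratocytes are flat cells that lie between the collagen lamellae of the stroma and maintain the matrix around them.

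The expression of these genes was examined in keratocytes sorted from the corneal stroma of mice with and without ablation of Ptch1, the receptor that holds Hedgehog signaling in check. The ablated group was Prrx1-CreERT;Ptch1 (f/f), a line in which a tamoxifen-dependent Cre expressed from the Prrx1 locus removes floxed Ptch1 in Prrx1-marked cells, among which the study also counts corneal endothelial cells. The other group was labelled as control or WT, and its alleles were not spelled out further. Both groups were labelled as 10 weeks old, with 3 doses of tamoxifen and a time of 1 month. Mice of both sexes were used, the sex behind each library is not given, and whether animals were pooled for a library is not stated. Each group comprised 3 RNA-seq libraries, described by the study as biological replicates. The libraries held between 20258439 and 24788063 estimated counts.

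Genes were taken by symbol: those starting with Nduf (complex I, its assembly factors and the related Ndufa4), Sdha to Sdhd (complex II), those starting with Uqcr together with Cyc1 (complex III), those starting with Cox4 to Cox8 (complex IV), and those starting with Atp5 (ATP synthase). Of 17606 genes in the table, 95 met the rule. The rule also admitted genes of the mitochondrial genome, but 0 such rows were present, so the subunits encoded there were not analysed here. After a filter on low counts 91 of the 95 genes were tested among 13888 genes in all, and the same 91 had at least 10 counts in at least 3 libraries. The 4 others were Ndufb4b, Cox7a1, Cox7b2 and Cox8b, which had at most 9 counts in any library.

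Labels were checked on the targeted pathway. Ptch1 had 172, 104 and 369 counts in the control libraries and 4348, 5194 and 6230 in the ablated ones, and Gli1, a Hedgehog target, had 1, 20 and 36 against 3022, 3042 and 3098. Their log2 fold changes were 4.47 ± 0.35 and 7.15 ± 0.54 (SE, n = 3 per group). A total over the Ptch1 gene does not resolve the deleted exons, so these counts show pathway output and not the deletion itself. The summed level of 6 keratocyte markers (Kera, Lum and others) was 61245 to 64888 TPM (a level per transcript length, scaled to the same sum in every library) in control and 42483 to 47013 TPM in ablated libraries, and the markers were abundant in every library. The sums of other cell types were small beside these. The lists differ in size and in the level of each gene (Aldh3a1 alone had a control mean of 32231 TPM), so the sums do not measure shares of cells. In control and ablated libraries the sums reached 259 to 267 and 630 to 664 TPM for 10 mural cell genes, 386 to 477 and 617 to 650 TPM for 8 vascular endothelial genes, 1740 to 2003 and 1687 to 2128 TPM for 10 leukocyte genes, and 62.9 to 93.9 and 4.39 to 12.7 TPM for 10 corneal epithelial genes. The epithelial genes did not move together. Krt12 had 0 counts in all control libraries and 21, 49 and 52 in ablated libraries. Krt5, Krt14 and Krt15 were lower in every ablated library, with 517, 751 and 986 counts of Krt15 in control and 22, 0 and 0 in ablated libraries. Schwann cell genes summed to 624 to 662 and 722 to 803 TPM, corneal endothelial genes to 454 to 502 and 390 to 586 TPM, melanocyte genes to 7.17 to 12.8 and 9.09 to 9.95 TPM, and skeletal muscle genes to 7.37 to 10.4 and 11.3 to 18.6 TPM. Acta2, counted here with the mural cell genes and by the study as a fibroblast marker, had means of 83.4 TPM in control and 249 TPM in ablated libraries. The part of the other cell types in the values that follow was not tested. In bulk samples fewer cells of a type and less RNA per cell cannot be told apart.

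Respiratory chain and ATP synthase genes had mostly negative log2 fold changes in the Ptch1-ablated libraries, and only Cox8a, a small subunit of complex IV, passed the test. The median log2 fold change over the 91 genes was -0.51, beside 0.0046 over all genes tested. A log2 fold change below 0 was found for 81 of the 91 (89.0%), against 49.6% of all genes, and it was found for 71 with library totals only and for 66 on the log2(TPM + 1) scale. By edgeR at an adjusted p of at most 0.05, 1 gene was lower, where 3.8% of all genes were called lower, and 0 were higher, where 4.68% were. Without adjustment, 28 genes (30.8%) were lower at a p under 0.05, where 9.72% of all genes were, and 1 was higher, where 10.8% were. None passed at a change of at least 2-fold, where 2.13% of all genes were called lower and 3.36% higher. DESeq2 on the same counts called 6 lower (Ndufs5, Ndufb9, Cox8a, Uqcr11, Ndufa13 and Ndufa11), where 5.6% of all genes were, and 1 higher, where 6.9% were. The 1 gene counted as higher, without adjustment and by DESeq2, was Cox6b2, which entered the test only through its counts in the ablated group and is no support for a rise.

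The summed TPM of the 95 genes was 17155, 15175 and 12103 in the control libraries and 11610, 12465 and 13651 in the ablated libraries. Control replicate 3 lay below ablated replicates 2 and 3, so the groups overlapped. The means were 14811 ± 2545 and 12575 ± 1025 TPM (SD, n = 3 per group), and the genes together took between 1.16% and 1.72% of all TPM. The scale matters for single genes. In CPM (counts relative to the library total, scaled by TMM), 24 genes (26.4%) were lower in every ablated library than in every control library, against 13.3% of all genes tested, and 2 (2.2%) were higher, against 14.1%. In TPM 10 genes (11%) lay lower, against 7.89% of all genes, and 5 (5.49%) lay higher, against 22.7%. The median log2 fold change of all genes on the log2(TPM + 1) scale was 0.19, and that of the respiratory chain genes was -0.30, which is -0.50 relative to all genes.

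**Figure D1:**
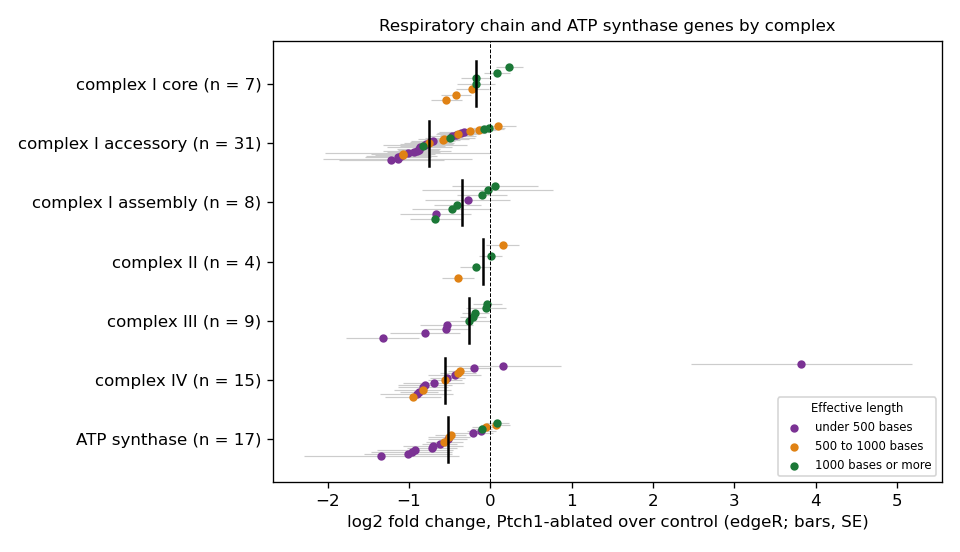
Each point is 1 gene, placed by its log2 fold change in Ptch1-ablated over control keratocytes (horizontal axis, edgeR on TMM-scaled counts, n = 3 libraries per group) and grouped by complex. Grey bars are standard errors, black lines are medians of the complexes and colours give the effective transcript length. Accessory subunits of complex I have the lowest median (-0.76), and Cox6b2 of complex IV lies farthest to the right at 3.82.

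Complex I was divided into its core, its accessory subunits and its assembly factors. The 7 nuclear core subunits, which carry the flavin and the iron-sulfur clusters of the electron path, had a median log2 fold change of -0.18, and their summed level was 1269, 1268 and 1013 TPM in control and 1206, 1105 and 1158 TPM in ablated libraries. Ndufs7, the most abundant of them, was at 308, 334 and 250.2 TPM in control and 241, 221 and 255 TPM in ablated libraries. In TPM the groups overlapped by 1 library, while in CPM they did not, with the ablated group lower, as for 13.3% of all genes tested. The log2 fold change of Ndufs7 was -0.54 ± 0.19 (SE, edgeR adjusted p = 0.115). Ndufs1, the largest core subunit, had the highest value of the core. It was at 43.7, 49.8 and 52.0 TPM in control and 69.5, 68.3 and 59.0 TPM in ablated libraries, which did not overlap, with a log2 fold change of 0.24 ± 0.17 (edgeR adjusted p = 0.491). In TPM 22.7% of all genes tested lay higher without overlap.

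The 31 accessory subunits that were tested, which surround the core and are needed to assemble and stabilise it, had the lowest median, -0.76, and 30 of them lay below 0. None passed the test. The 5 nearest to the threshold were Ndufa13 (-0.88 ± 0.25, edgeR adjusted p = 0.0519), Ndufs5 (-0.88 ± 0.26, 0.0651), Ndufb3 (-1.08 ± 0.34, 0.0807), Ndufb9 (-0.74 ± 0.24, 0.0888) and Ndufa11 (-0.83 ± 0.28, 0.0926), named here after their values were seen. Ndufa13 was at 192, 175 and 131 TPM in control and 76.8, 107 and 117 TPM in ablated libraries, without overlap. Ndufb10, the most abundant accessory subunit, was at 245 ± 42.9 TPM in control and 214 ± 24.5 TPM in ablated libraries (SD, n = 3 per group), with a log2 fold change of -0.42 ± 0.21 (edgeR adjusted p = 0.285). The lowest value belonged to Ndufa3, where 1 library decided it. Ndufa3 was at 217 TPM in control replicate 1 and between 43.8 and 61.5 TPM in the other 5 libraries (-1.22 ± 0.65, edgeR adjusted p = 0.325). Ndufab1, the mitochondrial acyl carrier protein, was the 1 accessory subunit above 0, at 0.09 ± 0.23 (edgeR adjusted p = 0.885). Ndufb4 and its near-identical copies Ndufb4b and Ndufb4c can share reads, so their values are uncertain.

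Assembly factors are not part of the finished complex. The 8 Ndufaf genes had a median of -0.34 and low levels, with sums of 193, 189.7 and 164 TPM in control and 146, 139 and 171 TPM in ablated libraries. Their values ran from -0.68 ± 0.31 for Ndufaf3 (edgeR adjusted p = 0.248) to 0.06 ± 0.53 for Ndufaf5 (0.974), and the most abundant, Ndufaf8, was at -0.67 ± 0.43 (0.439). None of these differences passed the test.

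Complex II, the succinate dehydrogenase, is also an enzyme of the TCA cycle and is encoded wholly in the nucleus. Its 4 genes had a median of -0.09, which was above 0 with library totals only, on the log2(TPM + 1) scale and without control replicate 3. Sdha, the flavoprotein that oxidises succinate, was at 233, 268 and 279 TPM in control and 341, 294 and 269 TPM in ablated libraries, and its log2 fold change was 0.0022 ± 0.14 (edgeR adjusted p = 0.997). Sdhb, the iron-sulfur subunit, had -0.40 ± 0.19 (edgeR adjusted p = 0.272), while the membrane anchors Sdhc and Sdhd had 0.15 ± 0.20 (0.750) and -0.18 ± 0.19 (0.673). Summed in TPM, the complex was at 715 ± 34.7 in control and 764 ± 9.9 in ablated libraries (SD, n = 3 per group), and each ablated library lay above each control library. On that scale 22.7% of all single genes tested also lay higher without overlap, and the median log2 fold change of all genes on the log2(TPM + 1) scale was 0.19. On the TMM-scaled counts 2 of the 4 genes lay below 0.

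All 9 genes of complex III had log2 fold changes below 0, with a median of -0.26, and none passed, while Uqcrc2 lay above 0 in 5 of the 17 alternatives. Uqcrc1 and Uqcrc2, the large core proteins, had -0.21 ± 0.17 (edgeR adjusted p = 0.535) and -0.04 ± 0.18 (0.945), and Cyc1, the cytochrome c1 subunit, had -0.18 ± 0.16 (0.599). Uqcrc1 was the most abundant of the complex, at 596, 514 and 472 TPM in control and 625, 450 and 502 TPM in ablated libraries, which overlapped. Uqcr11, a very small subunit, had the lowest value, -1.33 ± 0.45 (edgeR adjusted p = 0.104). It was at 467, 241 and 171 TPM in control and 72.3, 116 and 216 TPM in ablated libraries. Control replicate 3 lay below ablated replicate 3, and the control libraries alone spanned a wider range than the means were apart. DESeq2 gave an adjusted p of 0.0279 for this gene.

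Complex IV held the 1 gene that passed. Cox8a encodes the widely expressed form of a small subunit and was at 669, 468 and 401 TPM in control and 249.99, 349 and 373 TPM in ablated libraries. All ablated libraries lay below all control libraries, with means of 513 ± 139 and 324 ± 65.0 TPM (SD, n = 3 per group). Cox8a fell by 0.88 ± 0.24 on the log2 scale (SE, edgeR adjusted p = 0.0398). The call was lost in 10 of the 17 alternatives tried, in which the log2 fold change ran from -1.04 to -0.36, and it was lost when any library other than control replicate 3 was left out. Without control replicate 1, the library with the highest value, it was -0.63 (edgeR adjusted p = 0.132), and with an offset for transcript length it was -0.36 (0.215).

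The 15 genes tested in the complex IV group, in which Ndufa4 and Ndufa4l2 are counted, had a median of -0.56, and 13 lay below 0. Cox4i1, the most abundant, was at 836, 733 and 541 TPM in control and 461, 519 and 679 TPM in ablated libraries, which overlapped (-0.56 ± 0.21, edgeR adjusted p = 0.147). Cox7a2, the widely expressed form of a small subunit, had the lowest value, -0.96 ± 0.34 (edgeR adjusted p = 0.126). Cox6a1, the widely expressed form of the subunit, had -0.53 ± 0.22 (edgeR adjusted p = 0.186). Cox5a, a subunit on the matrix side, was at 141 ± 7.8 TPM in control and 142 ± 3.5 TPM in ablated libraries (SD, n = 3 per group), with a log2 fold change of -0.20 ± 0.21 (edgeR adjusted p = 0.664). In the summed TPM of the group, 4225, 3548 and 2735 in control and 2253, 2766 and 3090 in ablated libraries, control replicate 3 again lay below ablated replicates 2 and 3.

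Several complex IV subunits exist as paralogs with tissue or condition specific use. Cox6b1 lies on the intermembrane side of the oxidase, and Cox6b2 is its testis paralog. Cox6b1 was at 477, 347 and 243 TPM in control and 159.5, 228 and 308 TPM in ablated libraries, which overlapped (-0.83 ± 0.31, edgeR adjusted p = 0.147). Cox6b2 had the highest log2 fold change of all 91 genes. Its counts were 0, 4 and 7 in control and 23, 121 and 35 in ablated libraries. The groups did not overlap, ablated replicate 2 was far above the other ablated libraries, and the gene passed the low-count filter only through the ablated group. Its fitted log2 fold change, 3.82 ± 1.36 (SE), is given as a description, since the gene entered the test through the group in which it was high. In TPM, Cox6b2 made up 0%, 0.46% and 1.05% of the pair in control and 4.23%, 15.95% and 3.42% in ablated libraries, so Cox6b1 remained the main form in every library.

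The promoters of Cox8a, Uqcr11 and the Cox6b pair are shown to compare the gene that passed, the lowest of complex III and 2 paralogs. Neither paralog passed by edgeR, and Cox6b2 entered the test only through the ablated group. Each sequence covers 130 bases before to 20 bases after the start of the gene in RefSeq (GRCm38.p6), 5′ to 3′ along the gene, all on the minus strand: chr19:7217597-7217746 for Cox8a, chr10:80406802-80406951 for Uqcr11, chr7:30626095-30626244 for Cox6b1 and chr7:4753075-4753224 for Cox6b2. Capitals mark CCGGAAG or its reverse complement CTTCCGG, the core bound by ETS factors such as GABP, and, in Uqcr11 near the start, CGCATGCGC, the reverse complement of the NRF1 letters GCGCATGCG.
Cox8a: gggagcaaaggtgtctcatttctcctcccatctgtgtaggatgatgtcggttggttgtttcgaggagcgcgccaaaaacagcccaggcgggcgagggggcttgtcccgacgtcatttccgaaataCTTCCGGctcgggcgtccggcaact
Uqcr11: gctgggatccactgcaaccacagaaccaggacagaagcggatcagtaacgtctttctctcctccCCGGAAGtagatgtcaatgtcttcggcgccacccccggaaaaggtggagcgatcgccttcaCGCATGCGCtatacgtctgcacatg
Cox6b1: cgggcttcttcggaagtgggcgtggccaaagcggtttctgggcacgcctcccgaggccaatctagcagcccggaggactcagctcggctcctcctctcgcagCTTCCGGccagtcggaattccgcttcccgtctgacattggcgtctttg
Cox6b2: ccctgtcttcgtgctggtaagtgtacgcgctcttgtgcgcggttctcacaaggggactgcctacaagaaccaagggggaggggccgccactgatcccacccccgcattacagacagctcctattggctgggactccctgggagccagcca

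The ETS letters began at base -5 of Cox8a, -66 of Uqcr11 and -28 of Cox6b1, counted from the gene start, and were absent from this window of Cox6b2. The NRF1 letters of Uqcr11 began at base -5. Promoters of 78 of the 95 genes were matched by gene ID, as windows of 250 bases before to 50 after the start. CCGGAAG, on either strand, lay in 19 of the 78 genes (24.4%) and in 9.93% of all 27025 genes with a promoter. The NRF1 letters GCGCATGCG lay in 10 (12.8%) against 1.95% and the YY1 letters AAGATGGCG in 8 (10.3%) against 1.64%. ACGTG, the core of the hypoxia response element, lay in 19 (24.4%) against 21.8%. None of these strings contains another. The median log2 fold change was -0.54 for the 19 genes tested with CCGGAAG and -0.50 for the 55 without, -0.60 for the 10 with and -0.50 for the 64 without the NRF1 letters, -0.61 and -0.52 for the YY1 letters (8 and 66 genes), and -0.57 and -0.53 for ACGTG (17 and 57 genes).

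The other paralog pairs are described by the share of the pair's TPM that the partner took. Ndufa4, counted today with complex IV, has the hypoxia-induced partner Ndufa4l2. Ndufa4l2 was at 541, 549 and 497 TPM in control and 443, 517 and 458 TPM in ablated libraries, and Ndufa4 was at 110.3, 117 and 78.4 TPM and at 72.5, 103 and 87.7 TPM. Per length the partner thus exceeded Ndufa4 by 5.19-fold in control and 5.39-fold in ablated keratocytes, and it took 84.0% ± 2.12 and 84.4% ± 1.31 of the pair (SD, n = 3 per group). The log2 fold changes were -0.38 ± 0.14 for Ndufa4l2 (edgeR adjusted p = 0.130) and -0.44 ± 0.33 for Ndufa4 (0.517). Ndufa4l2 and Cox4i2 are also known from mural cells, whose marker sum differed between the groups as given above. Cox4i2, the form of subunit 4 used in lung and under low oxygen, was at 11.4 ± 3.7 TPM in control and 14.7 ± 6.4 TPM in ablated libraries, with a log2 fold change of 0.16 ± 0.71 (edgeR adjusted p = 0.944). It made up 1.56% ± 0.21 of the Cox4 pair in control and 2.51% ± 0.60 in ablated libraries, and each ablated library lay above each control library. Cox7a2l, which helps to join complexes III and IV, took 67.5% ± 4.77 of its sum with Cox7a2 in control and 74.2% ± 6.51 in ablated libraries, which overlapped, and its log2 fold change was -0.40 ± 0.23 (edgeR adjusted p = 0.368). The heart and muscle forms Cox7a1 and Cox8b and the testis form Cox7b2 had at most 5 counts in any library.

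In the ATP synthase, 17 genes were tested, with a median of -0.53 and 15 below 0, and none passed. The large subunits of its catalytic head lay near 0. Atp5b, the beta subunit, was the most abundant gene of the set, at 829, 889 and 807 TPM in control and 932, 827 and 948 TPM in ablated libraries (-0.11 ± 0.13, edgeR adjusted p = 0.715). Atp5a1, the alpha subunit, was at 316, 378 and 321 TPM in control and 458, 399 and 393 TPM in ablated libraries. These lay higher without overlap, as did 22.7% of all genes tested in TPM. Its log2 fold change on TMM-scaled counts was 0.09 ± 0.14 (edgeR adjusted p = 0.796). Atp5k, a very short subunit of the membrane part, had the lowest value, -1.34 ± 0.95 (edgeR adjusted p = 0.489). It was at 62.2, 37.9 and 23.4 TPM in control and 17.7, 17.0 and 21.3 TPM in ablated libraries, so the groups did not overlap but control replicate 3 lay close to ablated replicate 3.

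The proton-carrying c ring of the synthase is made from 3 genes that encode the same mature protein. Atp5g1, Atp5g2 and Atp5g3 had log2 fold changes of -0.57 ± 0.23, -0.62 ± 0.22 and -0.21 ± 0.24 (edgeR adjusted p = 0.177, 0.113 and 0.697). Atp5g2 took 49.6% ± 0.96 of its sum with Atp5g1 in control and 49.0% ± 4.80 in ablated libraries. Atp5g3 took 32.2% ± 1.22 and 38.4% ± 4.85 of its sum with Atp5g1 (SD, n = 3 per group), with every ablated library above every control library. The inhibitor of the synthase, Atpif1, which is outside the rule, had a log2 fold change of -0.80 ± 0.32 (edgeR adjusted p = 0.166).

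**Figure D2:**
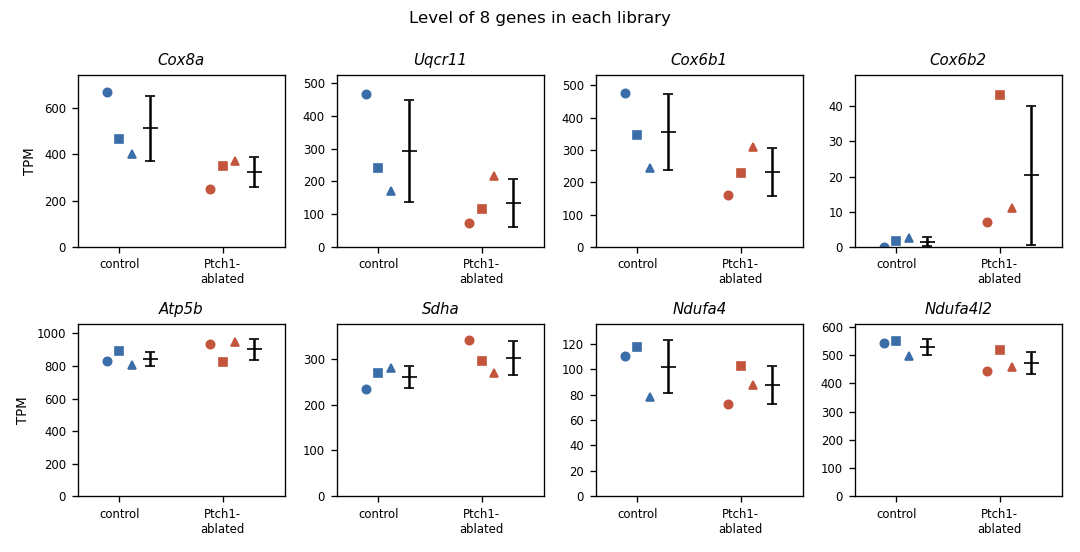
TPM of 8 genes in each of the 3 control and 3 Ptch1-ablated libraries (points; circle, square and triangle are replicates 1, 2 and 3), with the mean and SD as bars, from 0. Cox8a and Cox6b2 have groups that do not overlap, while Uqcr11, Cox6b1, Atp5b, Sdha, Ndufa4 and Ndufa4l2 overlap in TPM.

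Log2 fold changes were lower for short transcripts than for long ones. The effective length, which the estimated counts and normalised values of the files imply, had a median of 516 bases over the 91 genes (100 to 3399) and of 2710 bases over the other genes tested. Across genes, which are not independent replicates, Spearman's rho of log2 fold change with length was 0.69 over the 91 genes and 0.22 over 13531 other genes. The 44 genes under 500 bases had a median of -0.76 with 42 below 0, the 24 of 500 to 1000 bases a median of -0.46 with 21 below 0, and the 23 of 1000 bases or more a median of -0.11 with 18 below 0. The summed level of the shortest class was 8335, 6601 and 4843 TPM in control and 3808, 4956 and 5370 TPM in ablated libraries, where only control replicate 3 overlapped the ablated group. That of the longest class was 3353, 3446 and 3152 TPM and 3832, 3285 and 3600 TPM, with overlap.

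Other genes of the same length lay below 0 as well, though less far. Under 300 bases the median was -0.89 for 24 respiratory chain genes and -0.53 for 97 others. From 300 to 500 bases it was -0.53 for 20 and -0.45 for 206, from 500 to 750 bases -0.53 for 16 and -0.33 for 428, and from 1000 to 1500 bases -0.18 for 15 and -0.12 for 1503. With an offset per gene and library for effective length, the median of the 91 genes was -0.14, 64 (70.3%) lay below 0 against 49.5% of all genes with a length, none passed by edgeR, and rho was 0.29. The medians under the offset were -0.28 for accessory subunits of complex I, -0.16 for complex IV, -0.15 for complex I assembly factors, -0.13 for the ATP synthase, -0.05 for the complex I core, -0.02 for complex III and -0.01 for complex II. What makes fold change follow length in these libraries was not tested.

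**Figure D3:**
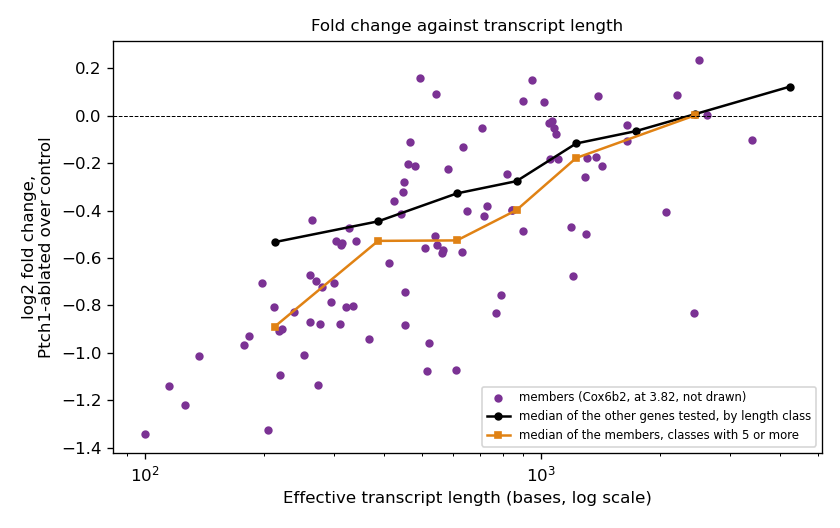
Log2 fold change in Ptch1-ablated over control keratocytes (vertical axis) against effective transcript length in bases (horizontal log axis) for 90 of the 91 genes, with the medians of all other genes tested by length class in black and those of the respiratory chain and ATP synthase genes in orange. The orange line, drawn for classes with 5 or more of these genes, lies below the black one in each of them, by the widest margin under 300 bases (-0.89 against -0.53) and by the narrowest at 2000 to 3000 bases (0.0022 against 0.0071).

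The libraries of a group were not alike in this respect. The median deviation of the 91 genes from their mean over the 6 libraries, in log2 CPM, was 0.45, 0.31 and -0.11 in control replicates 1, 2 and 3 and -0.38, -0.31 and 0.0068 in ablated replicates 1, 2 and 3. Ablated replicate 3 thus lay above control replicate 3. All 121 genes under 300 bases gave 0.69, 0.23 and -0.11 and then -0.58, -0.26 and 0.0068, the same order. This class includes 24 of the 91 genes, so the sets are not independent, and its 97 other genes were not examined alone. Control replicate 1 was the highest library for 55 of the 91 genes (60.4%) and for 21.7% of all genes. Without it, the median of the 91 was -0.40, and 79 lay below 0, against 49.3% of all genes tested.

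**Figure D4:**
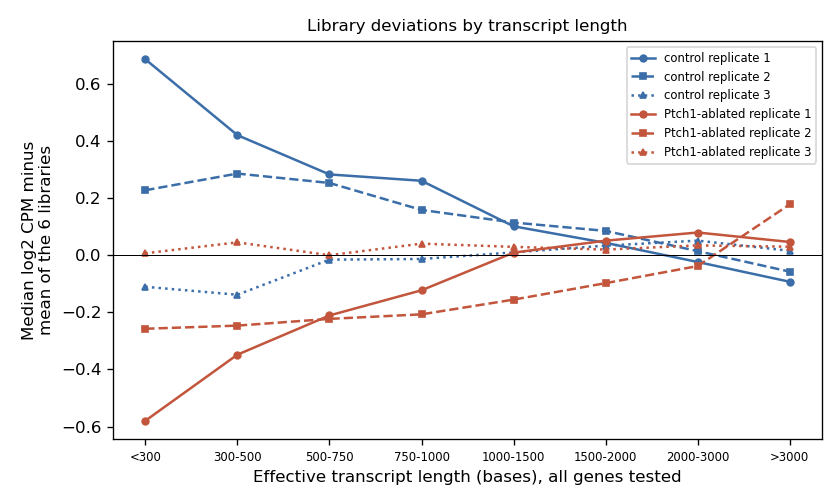
Median deviation of each library from the mean of the 6 libraries (vertical axis, log2 CPM) for all genes tested in 8 classes of effective length (horizontal axis, bases), with control libraries in blue and Ptch1-ablated libraries in red. The libraries fan out toward short transcripts, from control replicate 1 at 0.69 to ablated replicate 1 at -0.58 under 300 bases, with control replicate 3 at -0.11 and ablated replicate 3 at 0.0068.

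The cytosolic ribosomal protein genes, another set of short and abundant mRNAs, were added for comparison after values were seen. The 96 tested of 102 had a median length of 508 bases and a median log2 fold change of -0.15. Without overlap in CPM, 2 (2.08%) were lower, against 24 of 91 (26.4%) for the respiratory chain genes and 13.3% of all genes tested. In the other direction, 5 (5.21%) were higher, where 14.1% of all genes were. With the length offset their median was 0.21. Their summed level was 27873, 24018 and 18219 TPM in control and 21193, 23893 and 27864 TPM in ablated libraries. Control replicate 3 was thus the lowest library of this set and ablated replicate 1 the next.

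Of 187 genes around the respiratory chain that were tested in the other pathway lists, 7 passed by edgeR. Of these 5 (2.67%) were lower, where 3.8% of all genes were, and 2 (1.07%) were higher, where 4.68% were. In the list of cytochrome c and inner-membrane carriers, 15 of 21 genes were tested, with a median of -0.23. Slc25a4, the carrier that exchanges ADP for ATP across the inner membrane, had 21329, 19107 and 20374 counts in control and 14978, 10908 and 15108 in ablated libraries, without overlap. It fell by 0.75 ± 0.14 on the log2 scale (SE, n = 3 per group, edgeR adjusted p = 0.0048), from 1739 ± 72.4 to 1193 ± 146 TPM, and passed under every alternative tried, with an adjusted p of at most 0.0318. Ucp2, an uncoupling protein of the same carrier family, rose by 0.66 ± 0.16 on the log2 scale (edgeR adjusted p = 0.0258), from 108 ± 13.8 to 199 ± 16.9 TPM. Cycs, the cytochrome c itself, was at 33.2 ± 3.8 and 34.1 ± 5.9 TPM (-0.16 ± 0.22, edgeR adjusted p = 0.754).

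Of 38 assembly factors outside the rule 37 were tested, with a median of -0.32 and 30 below 0. Among them 1 passed as lower, where 3.8% of all genes did. Uqcc2, an assembly factor of complex III, had 687, 529 and 376 counts in control and 130, 189 and 340 in ablated libraries, and it fell by 1.47 ± 0.38 (edgeR adjusted p = 0.0334). The call was lost in 7 of 17 alternatives, in which the log2 fold change ran from -1.90 to -0.92. Cox17, the copper chaperone of complex IV, had -0.75 ± 0.56 (edgeR adjusted p = 0.516). The regulators of mitochondrial biogenesis showed no call among 24 tested, with 0 at an unadjusted p under 0.05, where 9.72% of all genes were lower and 10.8% higher, and a median of 0.20. Ppargc1a, the co-activator PGC-1α, had -0.61 ± 0.35 (edgeR adjusted p = 0.375), Nrf1 had 0.27 ± 0.26 (0.636), and Tfam, which packages mitochondrial DNA, had 0.49 ± 0.43 (0.596).

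The 18 TCA cycle genes had a median of -0.05, and 1 passed as lower, where 3.8% of all genes did. That gene was Pcx, the pyruvate carboxylase that feeds oxaloacetate into the cycle. Pcx fell by 0.73 ± 0.18 (edgeR adjusted p = 0.0241), from 60.1 ± 1.4 to 41.9 ± 8.8 TPM. The 78 mitochondrial ribosomal protein genes, with a median length of 834 bases, had a median of -0.27 with 66 below 0. Among them 1 passed as lower, where 3.8% of all genes did. It was Mrpl11, which fell by 1.25 ± 0.33 (edgeR adjusted p = 0.0366). Of 14 hypoxia response genes tested, 10 (71.4%) were higher in every ablated library than in every control library in CPM, where 14.1% of all genes were, and their summed level was 1662, 1710 and 1716 TPM in control and 2523, 2546 and 2641 TPM in ablated libraries. By edgeR, 1 of the 14 genes passed as higher, where 4.68% of all genes did, and 1 as lower, where 3.8% did. Ndrg1, a stress-responsive gene, rose by 1.14 ± 0.15 (edgeR adjusted p = 0.0005), and Hif1a, the oxygen-regulated factor whose activity is set mainly by protein stability, fell by 0.55 ± 0.15 (0.0468). Across the 17 alternatives the calls of Ucp2, Pcx, Mrpl11 and Hif1a were lost in 6, 7, 9 and 9, each of them when single libraries were left out (Pcx, for example, without control replicates 2 or 3 or ablated replicates 2 or 3), while Ndrg1 passed in all.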

How the data were processed

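Sorted corneal keratocytes of 3 control and 3 Ptch1-ablated samples were profiled by RNA-seq. The labels name an Illumina TruSeq kit and the study's methods a Ribo-Zero depletion on BGISEQ-500, and which applies was not resolved. Per the submitters' processing notes, the authors aligned reads to mm9 with Bowtie2 (2.2.5) and quantified genes with RSEM (1.2.12). The deposited tables hold RSEM estimated counts per gene, of which 18.6% were not whole, and TPM and FPKM values that the authors derived from them. Strandedness is not given in the sources used here, so the 30 of 91 matched genes whose exons overlap another gene (GENCODE M21), among them Ndufa4l2 and Cox4i1, may share reads with it. Counts were split among near-identical copies by RSEM.

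Here, estimated counts were rounded, filtered (filterByExpr), scaled by TMM and fitted over all genes with edgeR's quasi-likelihood test (edgeR 4.0.16, R 4.3.3) with Benjamini-Hochberg adjustment. Adjusted p at most 0.05 was the threshold, with a change of at least 2-fold as a second one. Alternatives used DESeq2 1.42.0, limma 3.58.1 on log2(TPM + 1) and log2(TPM + 0.1), other scalings and filters, a lowess offset for effective length, a replicate block, and each library left out in turn. Effective length was taken as the length that count, TPM and FPKM imply, known for 13622 of the 13888 genes tested. The edgeR fit and a limma fit on log2(count + 1) were tested on simulated counts that held no trend with length. DESeq2, the limma fits on TPM, the length offset and the replicate block were not tested in this way. Members and gene lists were chosen with earlier results of these data known.

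Named were Ptch1, Gli1, genes that passed, the most abundant, highest and lowest gene of each complex, paralog pairs, up to 3 genes passed per list and direction, and Ppargc1a, Nrf1, Tfam, Cycs and Cox17. Others were named after their values were seen: Cox6a1, Cox5a, Sdhb, Sdhd, Cyc1 and Atpif1, and those so marked in the text. Within groups no 2 libraries agreed within sampling noise.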

Additional observations from a re-analysis of the deposited data

How the results depend on the processing

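Directions of the 91-gene median held in every alternative tried. It was -0.51 as reported, -0.14 with the length offset and between -0.66 and -0.40 when 1 library was left out. The count of genes passing lower, 1 as reported, was 2 with upper quartile scaling, 0 with library totals only, 2 with no filter on low counts, 2 with a mean count of at least 50, 6 by DESeq2, 4 by limma on log2(TPM + 1), 4 on log2(TPM + 0.1) and 0 with the length offset. Leaving out libraries gave 0 to 6, with 6 without control replicate 3. The count passing higher, 0 as reported, was 1 by DESeq2 and 1 with either limma fit, each time Cox6b2, which passed the filter only through the ablated group. At a 2-fold change in either direction, 0 passed as reported. The count was 2 by DESeq2 (Uqcr11, lower, and Cox6b2, higher) and 1 with either limma fit (Cox6b2, higher). It was 0 to 5 when a library was left out, with 5 without control replicate 3 and 1 without ablated replicate 3, all of them lower. Of the 187 other pathway genes, 7 as reported, 14 passed by DESeq2, 16 and 15 by limma, and 2 to 5 when a library was left out.

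The medians of complex I core and complex II changed sign in some alternatives: to 0.019 with either limma fit for the core (-0.18 as reported), and to 0.079 with library totals only, 0.12 with either limma fit and 0.0022 without control replicate 3 for complex II (-0.09 as reported, and -0.15 to 0.0022 when a library was left out). For single genes, 702 alternative values kept their direction and side of the threshold, 5 newly passed, 48 no longer passed, and 25 changed sign, all of genes that passed neither way. With library totals only, Uqcrc2 was at 0.13 and Atp5b at 0.058. By limma on log2(TPM + 1) and log2(TPM + 0.1), Uqcrc2 was at 0.16 and 0.16, Atp5b at 0.099 and 0.099, Atp5g3 at 0.017 and 0.017 and Cycs at 0.029 and 0.030. With the length offset, Ndufb10 was at 0.031, Sdha at -0.0064, Uqcrc2 at 0.040, Ndufa4 at 0.13 and Atp5g3 at 0.19. Sdha was at -0.043 with upper quartile scaling and -0.0024 with the replicate block. With 1 library left out, Cox4i2 ran from -0.28 to 0.42, Cycs ran from -0.29 to 0.0083, Ndufaf5 ran from -0.034 to 0.16, Sdha ran from -0.11 to 0.062 and Uqcrc2 ran from -0.19 to 0.089. The causes of these differences were not tested.

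Equal replicate numbers did not mark pairs: the correlations of deviations between control and ablated libraries of the same number were -0.046, -0.049 and 0.039. With the replicate block 0 of the 91 genes passed lower and 4 of the 187 other genes passed. Precision is limited by 3 libraries per group, and low genes such as Cox6b2 also by counting.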
